A study of Mus musculus with 6 samples.

Results

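The sphingolipid and galactolipid genes were examined in whole sciatic nerves of 25-day-old mice. They are a list of 38 genes of ceramide, sphingomyelin, galactolipid and ganglioside synthesis and breakdown, taken by gene symbol, of which 37 were matched to a probe set among 20239 named genes, and Cers1 was not analysed here. The 3 mutant mice (DhhCre::Sip1 flox/flox) carried 2 floxed alleles of Sip1, the gene now named Zeb2, which encodes a zinc finger transcription factor, and a Cre recombinase driven by Dhh regulatory sequences, active in the Schwann cell lineage. The 3 control mice (Sip1 flox/flox) carried the same floxed alleles and no Cre is named for them. Total RNA of each mouse had been labelled with biotin and hybridised to an Affymetrix whole-transcript array, and values are on a log2 scale. Samples within a group are biological replicates, per the labels. The whole nerve also holds fibroblasts, perineurial cells, vessels, macrophages and adhering muscle and fat. Whether the deletion reached any of these cells was not measured here.

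Sphingolipids are built on ceramide, which is made in the endoplasmic reticulum by joining serine to a fatty acid (serine palmitoyltransferase), reducing the product, adding a second fatty acid (ceramide synthases) and desaturating it. Ceramide then becomes galactosylceramide and its sulfated form sulfatide, which are abundant in myelin, or sphingomyelin, or glucosylceramide and gangliosides. Lysosomal enzymes take these lipids apart again, and the sphingosine released can be phosphorylated to the signalling lipid sphingosine 1-phosphate.

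Of the 37 measured genes, 7 fell in the mutant nerves, 3 rose and 27 did not pass the test, which was limma across all genes with a Benjamini-Hochberg adjusted p under 0.05. The 10 changed genes are 27.0% of the list, and 9.62% of all 20239 genes passed. Falls were 18.9% of the list against 3.89% of all genes, and rises 8.11% against 5.74%. Of the 37 genes, 32 were in the upper 50% of genes by mean array value, a rank that also reflects each gene's probes, and there 18.5% of all genes passed in a fit to that part alone and 11 of the 32 did. The median log2 difference (mutant minus control) was −0.13 over the list and −0.02 over all genes, and the members ran from −5.03 to 1.19. The falls lay in ceramide synthesis (4 of 11 genes) and galactolipid synthesis (3 of 3), and the rises were Cers6, Sgms2 and Acer3, in 3 different branches. The count of rises was 1 without mutant 1 and 1 without mutant 3, Cers6 in both cases, and 6 with array weights, while 11 genes fell with the adipocyte markers as a covariate.

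**Figure D1:**
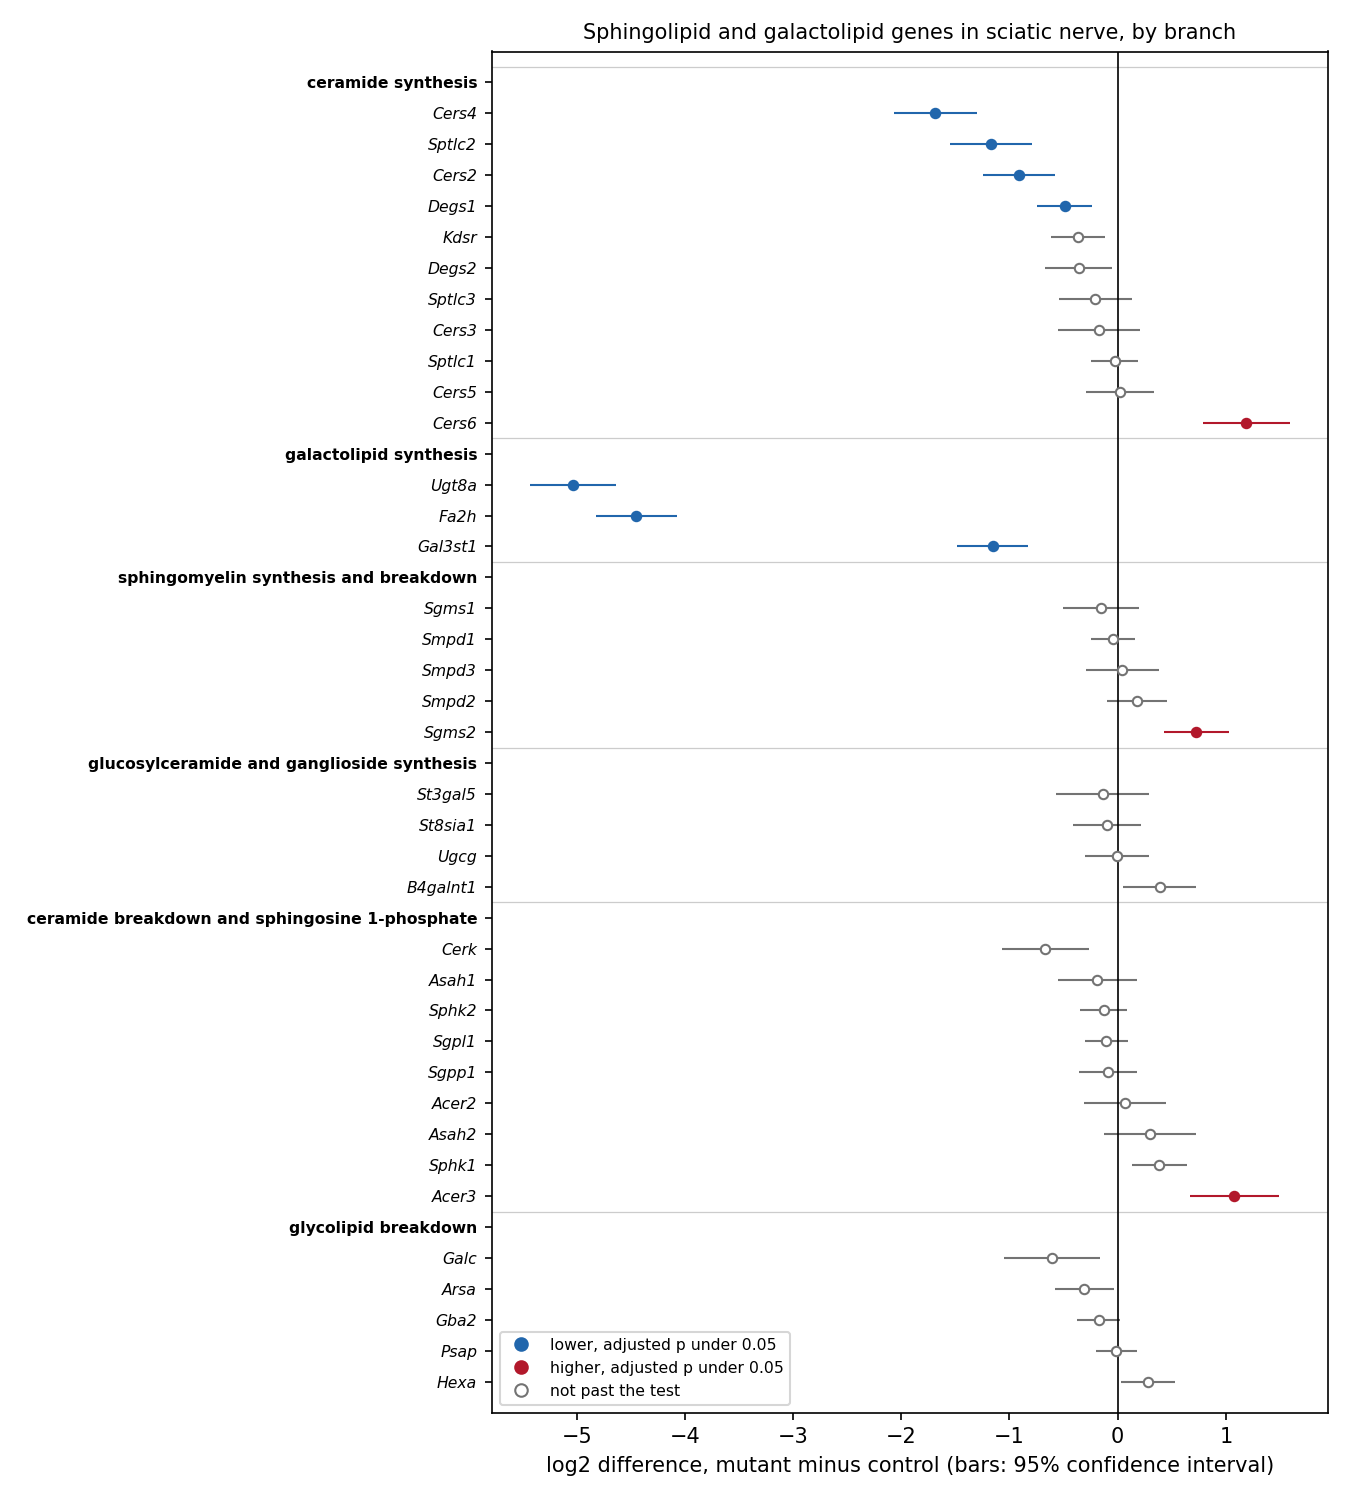
Log2 difference between mutant and control nerves (x axis, log2 units) for the 37 measured genes, grouped by branch and sorted within it; points are differences of the means of 3 mutant and 3 control nerves, bars the 95% confidence interval of the limma fit, and filled points passed the test. Ugt8a (−5.03) and Fa2h (−4.45) lie far to the left of all other genes, whose differences run from −1.69 (Cers4) to 1.19 (Cers6).

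Zeb2 itself read 11.67, 11.57 and 12.02 in the control nerves 1 to 3 and 10.96, 10.66 and 11.01 in the mutant nerves 1 to 3. The mutant mean was lower (log2 difference −0.88, SE 0.15, limma adjusted p = 0.0137, and 0.0522 without mutant 1). Myelin markers were present in every control nerve, and the 7 that were measured fell, with differences from −6.58 (Pmp2) to −0.60 (Pmp22). The mean of 5 Schwann cell lineage markers was 9.35 to 10.01 in the mutants and 10.41 to 11.18 in the controls without overlap, and 2 of them fell (S100b −1.51 and Erbb3 −1.14). Egr2 (−1.47) and Sox10 (−0.74) were lower and did not pass. Foxd3 overlapped between the groups (0.03), so this mean does not describe each marker. Of 6 markers of immature and nonmyelinating Schwann cells 3 rose (Gfap 4.55, Sox2 1.62 and Ncam1 1.44) and 2 fell (L1cam −1.96 and Scn7a −1.36). Ngfr was lower and did not pass (−0.59). Their mean was 10.11 to 10.54 in the mutants and 9.62 to 9.97 in the controls. Gfap had by far the largest difference, so this mean does not describe the markers as a set. Fewer Schwann cells and less RNA per Schwann cell cannot be told apart in whole nerve, and the part of the lineage markers in the falls below was not tested. The mean of 18 skeletal muscle genes read 7.66, 12.38 and 10.30 in the control nerves 1 to 3 and 7.56, 12.32 and 9.85 in the mutant nerves 1 to 3, so samples 2 of both groups were rich in muscle. The mean of 12 fat markers was 10.61 to 11.17 in the mutants and 10.09 to 12.24 in the controls. None of the muscle or fat markers passed the test. Without the 2 muscle-rich samples 6 members fell and 3 rose. By Xist and Y-linked genes, 2 of the 3 mutants and 1 of the 3 controls were male, so sex was not balanced between the groups, and with sex as a covariate 6 members fell and 3 rose.

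Galactolipid synthesis fell as a whole branch, and its first enzyme fell the furthest of the list. Ugt8a transfers galactose to ceramide and so makes galactosylceramide. It read 13.18, 13.09 and 13.53 in the control nerves 1 to 3 and 8.37, 7.93 and 8.39 in the mutant nerves 1 to 3. All mutants lay more than 4 log2 units below the lowest control. The means were 8.23 ± 0.26 and 13.27 ± 0.23 (SD, n = 3 each), a log2 difference of −5.03 (32.8-fold lower, SE 0.17, 95% confidence interval −5.44 to −4.63, limma adjusted p = 6.56e-05). Fa2h hydroxylates the fatty acid that enters ceramide and gives the hydroxylated galactolipids of myelin. It read 12.29, 12.17 and 12.66 in the control nerves and 7.94, 7.72 and 8.11 in the mutant nerves. Here too the groups were far apart, with a log2 difference of −4.45 (SE 0.16, 21.8-fold lower, limma adjusted p = 6.56e-05). Gal3st1 adds sulfate to galactosylceramide, giving sulfatide. It read 9.82, 9.88 and 10.31 in the control nerves and 8.87, 8.84 and 8.84 in the mutant nerves. The 3 mutant values were nearly equal (SD 0.019) and lay below every control, with a log2 difference of −1.15 (SE 0.14, 2.23-fold lower, limma adjusted p = 0.00364).

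These 3 falls can be set beside the RNA of the myelin marker genes in the same nerves. The log2 difference was −6.58 for Pmp2, −4.89 for Mag, −4.34 for Drp2, −2.22 for Cldn19, −2.15 for Mal, −1.39 for Mbp and −0.60 for Pmp22. Ugt8a and Fa2h thus fell by about as much as Mag and Drp2, and Gal3st1 by about as much as Mbp. The differences between these genes were not tested. The mutant means of Ugt8a and Fa2h (8.23 and 7.93) were close to the array medians of 7.995 to 8.08, and detection calls were not used, so how far above background these values lay is unknown.

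Promoter windows of 300 bases, from 250 bases before to 50 after a RefSeq start site (build GRCm38.p6), were matched for 33 of the 37 genes, 51 windows in all. They were searched on both strands for CACCTG (the E-box that ZEB factors bind), ACAAAG (a SOX core), GCGNGGGCG (an EGR site) and TCACNCCAC (an SREBP site). Ugt8a and Gal3st1, of the galactolipid branch, are printed 5′ to 3′ because they are the genes of the fallen branch that were matched, and capitals mark the matches.
Ugt8a promoter, chr3:125938603-125938902, minus strand: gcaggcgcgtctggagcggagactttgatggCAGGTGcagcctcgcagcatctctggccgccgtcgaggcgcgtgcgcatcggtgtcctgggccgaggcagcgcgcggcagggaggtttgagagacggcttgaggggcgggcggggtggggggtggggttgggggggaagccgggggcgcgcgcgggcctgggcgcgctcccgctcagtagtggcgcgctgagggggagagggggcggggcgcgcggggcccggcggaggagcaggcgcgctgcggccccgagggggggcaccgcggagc
Gal3st1 promoter, chr11:3983386-3983685, plus strand: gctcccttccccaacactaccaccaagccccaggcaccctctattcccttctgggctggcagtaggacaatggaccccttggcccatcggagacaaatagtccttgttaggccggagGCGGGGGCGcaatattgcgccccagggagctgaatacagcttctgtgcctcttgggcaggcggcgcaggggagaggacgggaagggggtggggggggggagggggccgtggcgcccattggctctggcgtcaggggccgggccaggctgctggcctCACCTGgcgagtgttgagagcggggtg
In Ugt8a the capitals mark an E-box that reads CACCTG on the strand opposite to the printed one. Its first printed base is at −219, counted from the start site. Gal3st1 has 3 start sites, and the window printed is the most upstream, with an EGR match whose first base is at −133 and an E-box at 24. The same E-box letters were found in all 3 of its windows. The window starting at 3983401 overlaps the printed one and holds the same E-box and EGR sites, at 9 and −148. The window starting at 3989683 holds another E-box, at −110.

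Ceramide synthesis was split between enzymes of the same step. The first step is made by serine palmitoyltransferase, in which Sptlc1 pairs with the catalytic subunits Sptlc2 or Sptlc3. Sptlc2 read 11.82, 11.81 and 12.33 in the control nerves 1 to 3 and 10.90, 10.66 and 10.89 in the mutant nerves 1 to 3. The groups did not overlap, and the log2 difference was −1.17 (SE 0.16, 2.26-fold lower, limma adjusted p = 0.00593). Its partner Sptlc1 was 9.38 to 9.57 in the mutants and 9.40 to 9.55 in the controls, with a difference of −0.03 and a 95% confidence interval from −0.24 to 0.19, and without mutant 2, mutant 3 or control 3 its sign turned, to at most 0.0097. Sptlc3 read 5.66 to 6.26 over all nerves, below every array median, and its difference was −0.21 (adjusted p = 0.467). Kdsr, which reduces the first product, did not overlap between the groups (9.67 to 9.92 in the mutants, 10.10 to 10.30 in the controls), and did not pass the test at −0.37 (adjusted p = 0.0818).

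Ceramide synthases differ in the fatty acid they attach, and their genes moved in opposite directions. Cers2 attaches very long chains, the kind found in myelin ceramides, and read 13.04, 12.88 and 13.28 in the control nerves and 12.31, 11.95 and 12.19 in the mutant nerves. All mutants were below all controls, with a log2 difference of −0.91 (SE 0.14, 1.89-fold lower, limma adjusted p = 0.00903). Cers4, which prefers long chains, read 11.02, 11.08 and 11.55 in the control nerves and 9.69, 9.39 and 9.50 in the mutant nerves. It fell the most of the family, with a log2 difference of −1.69 (SE 0.16, 3.22-fold lower, limma adjusted p = 0.00168). Cers6, which prefers shorter chains, read 8.99, 8.64 and 8.90 in the control nerves and 10.12, 9.71 and 10.28 in the mutant nerves. Each mutant lay above each control, with a log2 difference of 1.19 (SE 0.17, 2.28-fold higher, limma adjusted p = 0.00653). Cers5, the other synthase that prefers shorter chains, was 11.07 to 11.46 in the mutants and 11.16 to 11.43 in the controls. Its difference was 0.02 with an interval from −0.29 to 0.34, and its sign turned with median centring, with the adipocyte markers as a covariate and without mutant 1, mutant 3 or control 2. Cers3, known from skin and testis, was 6.61 to 6.82 in the mutants and 6.62 to 7.20 in the controls, below every array median. Its groups overlapped (difference −0.17, adjusted p = 0.600).

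The last step, the desaturation of dihydroceramide, is made by Degs1. It read 11.86, 11.66 and 11.91 in the control nerves and 11.38, 11.18 and 11.39 in the mutant nerves. The groups did not overlap, and the fall was the smallest of those that passed (−0.49, SE 0.11, limma adjusted p = 0.0328). It did not pass when any one sample other than control 2 was left out (adjusted p between 0.0723 and 0.104), with sex as a covariate (0.0746) or without the 2 muscle-rich samples (0.0556). Degs2, which can also hydroxylate, did not overlap either and did not pass at −0.36 (adjusted p = 0.154). In all, 9 of the 11 genes of the branch were below 0, with a median of −0.36.

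**Figure D2:**
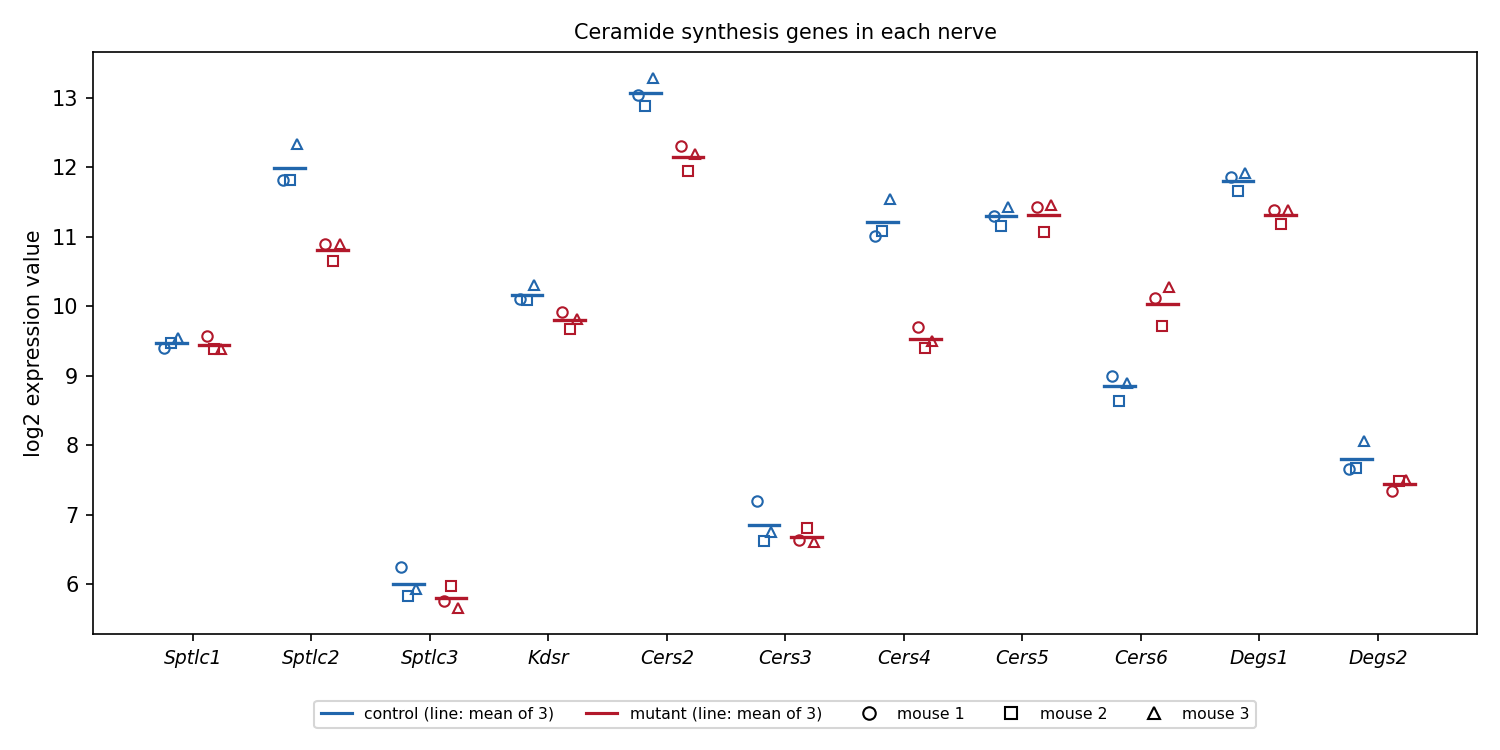
Log2 expression values (y axis) of the 11 measured genes of ceramide synthesis in each of the 3 control (blue) and 3 mutant (red) nerves; symbols mark mouse 1, 2 and 3 and lines the group means, and heights of different genes are not comparable because each has its own probes. Sptlc2, Kdsr, Cers2, Cers4, Degs1 and Degs2 are lower and Cers6 is higher in every mutant than in any control, while Sptlc1, Sptlc3, Cers3 and Cers5 overlap. Kdsr and Degs2 did not pass the test.

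Sptlc2, Cers4 and Cers6 are the genes of ceramide synthesis with the largest changes, and their promoter windows are printed to set the genes that fell beside the one that rose, with matches to the 4 motifs in capitals.
Sptlc2 promoter, chr12:87388306-87388605, minus strand: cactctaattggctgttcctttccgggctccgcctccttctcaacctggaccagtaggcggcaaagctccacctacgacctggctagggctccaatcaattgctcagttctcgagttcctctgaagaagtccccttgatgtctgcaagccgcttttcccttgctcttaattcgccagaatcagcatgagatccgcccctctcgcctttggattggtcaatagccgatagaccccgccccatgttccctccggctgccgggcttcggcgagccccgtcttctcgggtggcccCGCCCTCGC
Cers4 promoter, chr8:4493155-4493454, plus strand: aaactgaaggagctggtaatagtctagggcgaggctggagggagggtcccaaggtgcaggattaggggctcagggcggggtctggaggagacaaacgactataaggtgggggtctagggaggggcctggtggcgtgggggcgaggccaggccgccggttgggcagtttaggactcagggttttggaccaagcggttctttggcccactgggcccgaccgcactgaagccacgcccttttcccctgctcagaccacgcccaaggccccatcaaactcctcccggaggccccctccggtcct
Cers6 promoter, chr2:68861191-68861490, plus strand: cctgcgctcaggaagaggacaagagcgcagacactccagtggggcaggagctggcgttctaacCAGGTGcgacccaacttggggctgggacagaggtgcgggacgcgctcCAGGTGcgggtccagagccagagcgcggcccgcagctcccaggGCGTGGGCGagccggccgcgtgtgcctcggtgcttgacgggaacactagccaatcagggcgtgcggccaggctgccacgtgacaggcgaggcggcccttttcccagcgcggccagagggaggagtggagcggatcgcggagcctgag
Cers6 holds 2 E-box matches on the strand opposite to the printed one, with first printed bases at −187 and −140, and an EGR match at −97. Sptlc2 holds an EGR match at 42, also on the strand opposite to the printed one, and these letters are not in the Cers4 window. No 2 matches overlapped in the printed windows. Over the list, 12 of 51 windows (23.5%) held the E-box, against 20.2% of all 32851 windows. The SOX core was in 7 windows (13.7% against 18.7%), the EGR motif in 6 (11.8% against 5.55%) and the SREBP motif in 0 (against 1.24% of all windows). The EGR windows belong to 5 genes, since the overlapping Gal3st1 windows share 1 site. Windows of one gene can overlap, and a match of letters is not a bound site.

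Sphingomyelin genes showed 1 change among 5. Sgms1 and Sgms2 transfer the phosphocholine head group to ceramide, at the Golgi and at the plasma membrane. Sgms2 read 8.29, 8.17 and 8.26 in the control nerves and 9.17, 8.72 and 9.02 in the mutant nerves. All mutants were above all controls, with a log2 difference of 0.73 (SE 0.13, 1.65-fold higher, limma adjusted p = 0.0143), which did not pass without mutant 1 (0.0568), mutant 3 (0.0721) or control 2 (0.0523). Sgms1 was 10.11 to 10.36 in the mutants and 10.21 to 10.72 in the controls (difference −0.16, interval −0.51 to 0.20). The sphingomyelinases, which remove the head group, had values near equal between groups. Smpd1, the lysosomal enzyme, differed by −0.05 (interval −0.25 to 0.16), Smpd2 by 0.18 (−0.10 to 0.45) and the neutral enzyme Smpd3 by 0.04 (−0.29 to 0.38, and −0.10 without control 3).

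Glucosylceramide and ganglioside synthesis had no gene past the test among 4. Ugcg makes glucosylceramide and draws on the same ceramide as Ugt8a. It read 9.03, 9.01 and 8.96 in the control nerves and 9.11, 8.72 and 9.14 in the mutant nerves. Its difference was −0.01 with an interval from −0.31 to 0.29, in the nerves where that of Ugt8a was −5.03, and it was 0.13 without mutant 2. The sialyltransferase St3gal5, which makes the first ganglioside GM3, differed by −0.14 (interval −0.57 to 0.29), and St8sia1, which makes GD3, by −0.10 (−0.42 to 0.22). St8sia1 read 6.35 to 6.75 over all nerves, below the array medians of 7.995 to 8.08. How far above background it lay is unknown, so its interval may not show a lack of change. B4galnt1, needed for complex gangliosides, was 7.76 to 8.17 in the mutants and 7.48 to 7.81 in the controls, a difference of 0.39 that did not pass (adjusted p = 0.160, and 0.0182 with array weights).

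In ceramide breakdown and sphingosine 1-phosphate turnover, 1 of 9 genes changed. Acer3, an alkaline ceramidase, read 7.60, 7.71 and 8.01 in the control nerves and 9.04, 8.52 and 8.996 in the mutant nerves. Every mutant was above every control, with a log2 difference of 1.08 (SE 0.17, 2.11-fold higher, limma adjusted p = 0.0105), which did not pass without mutant 1 (0.0513) or mutant 3 (0.0538). The other ceramidases gave −0.19 (the lysosomal Asah1), 0.30 (Asah2) and 0.07 (Acer2, −0.05 without control 3), with overlapping groups. Cerk, which phosphorylates ceramide, read 9.08, 9.16 and 9.67 in the control nerves and 8.68, 8.48 and 8.74 in the mutant nerves. The groups did not overlap, and the difference of −0.67 did not pass (adjusted p = 0.0552) but did in 7 alternatives, among them those with the replicate number blocked (0.0257), with either filter on low values (0.0466 and 0.0393) and with the adipocyte markers as a covariate (0.0037). The sphingosine kinase Sphk1 was 8.41 to 8.73 in the mutants and 8.10 to 8.26 in the controls, a difference of 0.39 that did not pass (adjusted p = 0.0757), and Sphk2 differed by −0.13. Sgpl1, the lyase that ends the pathway, and the phosphatase Sgpp1 differed by −0.10 and −0.09, and the intervals of both lay within 0.5 of 0.

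Glycolipid breakdown had no gene past the test among 5. The groups did not overlap for 4 of them, 3 lower and 1 higher in the mutants, and 28.1% of all genes did not overlap. Galc removes galactose from galactosylceramide and is the gene of Krabbe disease. It read 8.61, 8.64 and 9.23 in the control nerves and 8.34, 8.02 and 8.30 in the mutant nerves. Control 3 stood above the other controls, and the difference was −0.61 (SE 0.19, adjusted p = 0.101, and 0.00927 with the adipocyte markers as a covariate). Arsa, which removes sulfate from sulfatide and is the gene of metachromatic leukodystrophy, differed by −0.31 (adjusted p = 0.166), and the glucosylceramidase Gba2 by −0.17 (0.290). Hexa, a subunit of the enzyme that trims gangliosides, was 10.77 to 11.05 in the mutants and 10.55 to 10.76 in the controls (difference 0.28, adjusted p = 0.175). Psap, the precursor of the saposins that present these lipids to their hydrolases, was nearly equal in all 6 nerves, at 13.05 to 13.18 in the mutants and 13.06 to 13.16 in the controls (difference −0.01, interval −0.20 to 0.18). None of 13 macrophage markers passed, all 13 had higher means in the mutants, and their mean level was 9.34 to 9.62 in the mutants and 8.996 to 9.36 in the controls. The part of macrophages in these values was not tested.

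**Figure D3:**
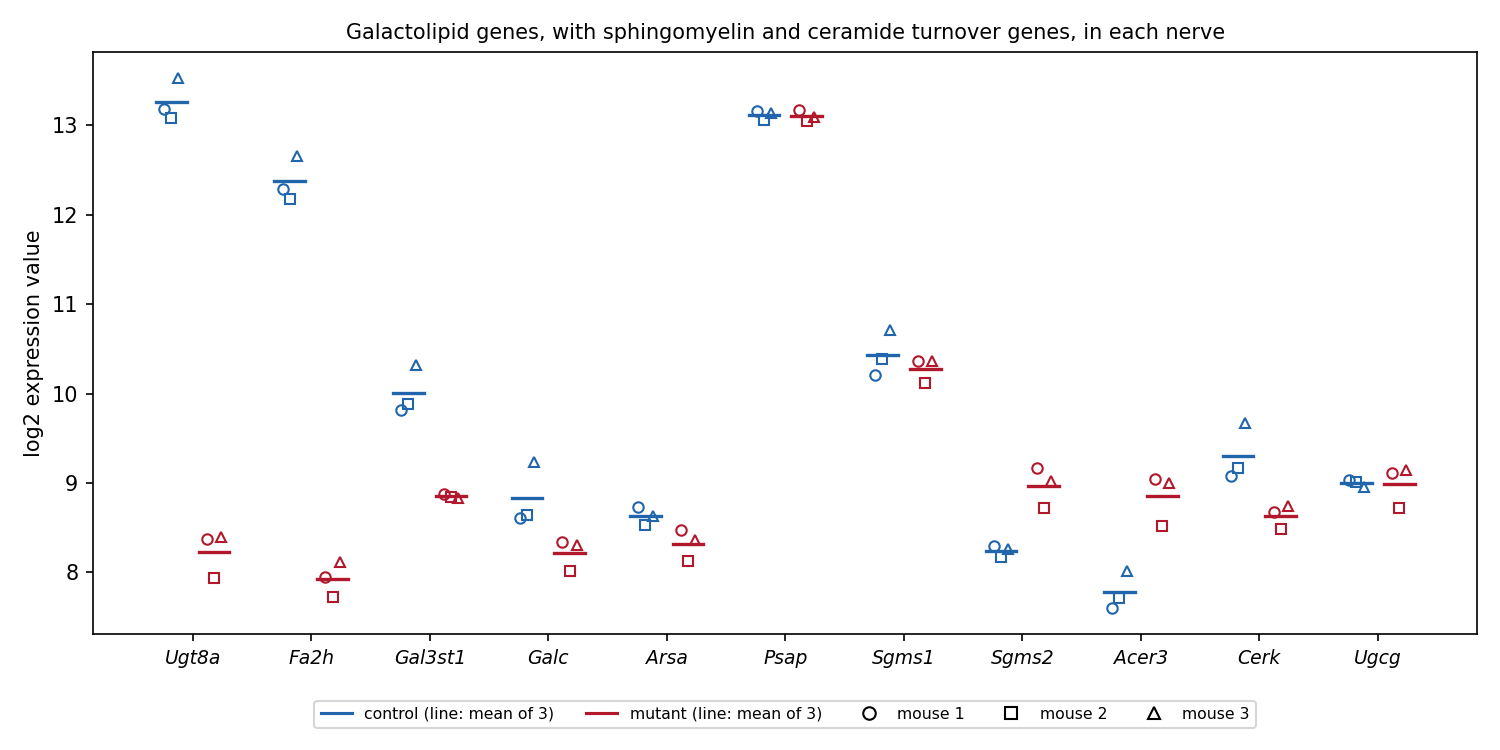
Log2 expression values (y axis) of 11 genes of galactolipid synthesis and breakdown, sphingomyelin and glucosylceramide synthesis and ceramide turnover in each of the 3 control (blue) and 3 mutant (red) nerves; symbols mark mouse 1, 2 and 3, lines the group means, and heights of different genes are not comparable. Ugt8a, Fa2h and Gal3st1 separate the groups widely, Psap, Sgms1 and Ugcg do not separate them, and Sgms2 and Acer3 are higher in every mutant. Galc, Arsa and Cerk are lower in every mutant and did not pass the test.

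Of the 37 genes, 18 (48.6%) did not overlap between the groups, 13 lower and 5 higher in the mutants. Of all genes 28.1% did not overlap, 11.8% lower and 16.3% higher. Among the 27 members that did not pass, 8 did not overlap, and 13 had a confidence interval within 0.5 of 0 on the log2 scale. These 13 include St8sia1, whose values lay below the array medians. The matching shares among all genes that did not pass were not computed. The samples of a group also differed in a common way over the list, and both muscle-rich samples ran low. Mutant 2 held the lowest of the 3 mutant values for 28 of the 37 genes (75.7%, against 40.6% of all genes). Control 2 held the lowest of the 3 control values for 19 (51.4%, against 38.9%) and the highest for 2 (5.41%, against 21.6%), and control 3 the highest of the 3 control values for 21 (56.8%, against 34.1%).

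Further genes of the pathway, outside the 38, were described by role. Of 53 such genes 51 were measured, 4 fell, 2 rose and 45 did not pass, and the 6 changed genes are 11.8% of those measured against 9.62% of all genes. The median log2 difference was −0.05. The count was 3 without mutant 1, 3 without mutant 3, 4 without mutant 2, 4 without control 2 and 12 with array weights.

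The largest change was in a ganglioside sialyltransferase. St8sia5, which adds sialic acid to already sialylated gangliosides, read 10.23, 10.59 and 11.13 in the control nerves 1 to 3 and 6.86, 8.09 and 6.69 in the mutant nerves 1 to 3. Mutant 2 stood above the other mutants and all 3 lay below the controls, with a log2 difference of −3.44 (SE 0.40, 10.8-fold lower, limma adjusted p = 0.00312). St3gal3, a sialyltransferase that acts on glycoproteins and glycolipids, fell (log2 difference −0.99, limma adjusted p = 0.00615), from 11.09, 11.41 and 11.49 in the controls to 10.18, 10.50 and 10.35 in the mutants. B3galnt1, which makes globoside, read 8.65, 8.58 and 8.36 in the control nerves and 9.43, 9.11 and 9.45 in the mutant nerves, and rose by 0.80 (adjusted p = 0.0105), which did not pass without mutant 1 (0.0561) or mutant 3 (0.0550).

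Among the regulators and transfer proteins of ceramide synthesis 1 of 10 fell, Fads3, which desaturates sphingoid bases (−0.68, adjusted p = 0.0395). This call was lost with the replicate number blocked (0.0509), with repeated quantile normalization (0.0531), with the muscle markers (0.0512) or sex (0.0804) as a covariate, without mutant 1, 2 or 3 or control 2 (0.0742 to 0.157), and without the 2 muscle-rich samples (0.114). Ormdl1 and Ormdl2, inhibitors of serine palmitoyltransferase named here after their values were seen, differed by 0.41 and 0.42 and did not pass (adjusted p = 0.0860 and 0.0857). Ormdl3, of the same family, differed by −0.05 with overlapping groups (limma adjusted p = 0.925). In sphingomyelin turnover 1 of 5 fell, Samd8, which makes a ceramide phosphoethanolamine (−0.75, adjusted p = 0.0292). It did not pass without any one sample other than control 1 (0.0691 to 0.104), with sex as a covariate (0.0505) or without the 2 muscle-rich samples (0.156). None of 8 further breakdown genes and none of 9 genes of sphingosine 1-phosphate turnover passed, and the smallest p belonged to Sumf1, the activator of sulfatases (0.34, adjusted p = 0.0977), and Hacl1 (−0.31, adjusted p = 0.110).

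Of 5 receptors of sphingosine 1-phosphate, S1pr3 rose. It read 11.07, 11.27 and 11.62 in the control nerves 1 to 3 and 12.78, 12.42 and 12.72 in the mutant nerves 1 to 3. All mutants lay above all controls, with a log2 difference of 1.32 (SE 0.17, 2.50-fold higher, limma adjusted p = 0.00432). The other 4 receptors did not pass. Of 6 perineurial markers 5 rose in the same nerves, with a mean of 11.32 to 11.49 in the mutants and 10.18 to 10.56 in the controls, and 2 of 6 fibroblast markers rose, with a mean of 12.63 to 12.84 against 12.30 to 12.45. The part of these cells in the rises of S1pr3, Cers6, Sgms2, Acer3 and B3galnt1 was not tested.

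**Figure D4:**
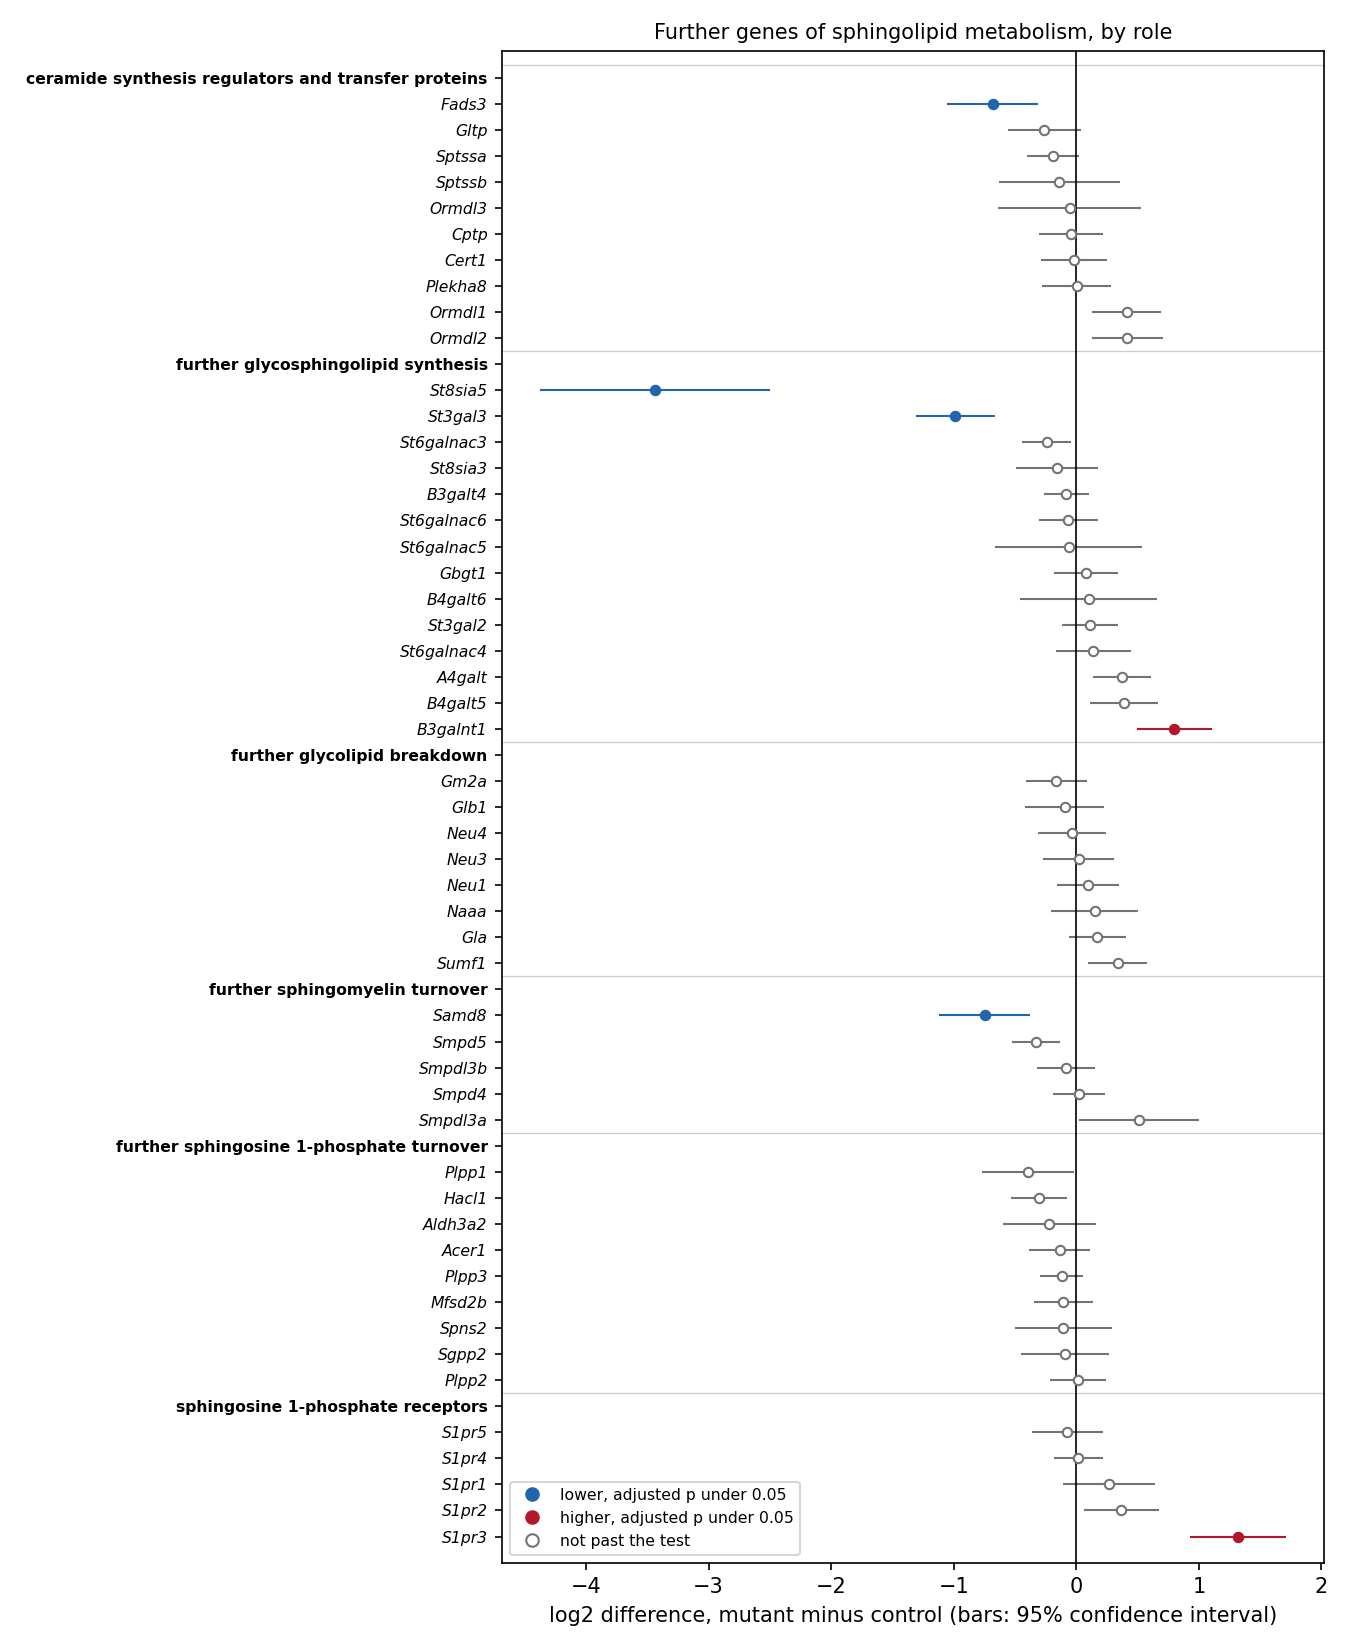
Log2 difference between mutant and control nerves (x axis, log2 units) for the 51 measured further genes of the pathway, grouped by role and sorted within it; points are differences of the means of 3 mutant and 3 control nerves, bars the 95% confidence interval of the limma fit, and filled points passed the test. St8sia5 (−3.44) lies apart at the left, S1pr3 (1.32) at the right, and most genes lie near 0.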

How the data were processed

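The table the authors deposited holds log2 values, with a value for each probe set in each mouse. The base of the logarithm was judged from their range of 3.55 to 14.52. Arrays were 1-colour and biotin-labelled, per the labels' protocols. The submitters' processing notes name limma with no version or role, and for background, normalization and summary the method is not given in the sources used. Of 21225 probe sets 20239 were named by 1 symbol, updated through Entrez gene numbers to RefSeq GRCm38.p6, 0 by several, and 986 were left unnamed. Columns outside the study numbered 0.

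The named genes were fitted together in R 4.3.3 with limma 3.58.1 (lmFit, then eBayes, two-sided, mutant minus control, no block, 6.893 degrees of freedom in all), with Benjamini-Hochberg adjustment over all genes and a threshold of 0.05. Values are mean ± SD, and SE is moderated. The number of arrays limits the precision. In simulated data over 20239 genes, 50 genes were changed per size in each of 20 runs, with noise independent between genes. There the fit recovered 27.1% of log2 changes of size 0.5, 74.5% of size 1 and 95.7% of size 2. Far fewer genes were changed than the 1948 that passed in these nerves, and noise shared between genes was left out. The shares are therefore not the power of the test reported here. Sequences are from RefSeq. Python 3.11.15 with matplotlib 3.10.9 drew the figures.

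The members, lists, alternatives and motifs were chosen with earlier results of these data known. All members are described, and of the further genes, in each role, up to 3 that passed with the largest change or the gene with the smallest p. Ormdl1, Ormdl2 and Ormdl3 were named outside this rule. Alternatives filtered low values (25% or 50% of genes), renormalized or centred the arrays, added 16 to the linear values, changed the prior, weights, block, covariates or probe sets, and left out samples. Xist and 3 Y-linked genes gave the sex of each mouse.

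The labels number the samples 1 to 3 in both groups. Deviations from the group means correlated at 0.36, 0.574 and 0.295 between same-numbered samples. All were over 0.1, so an alternative fit took the numbers to pair the samples, while the main fit had no block. Mutant 1 and control 3 also correlated, at 0.303, and same-numbered samples were of opposite sex. The pairing is read from the data, not from the labels, and same-numbered samples also had similar levels of muscle genes, so a shared replicate and shared muscle content cannot be told apart. The largest correlation between 2 arrays was 0.995.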

Additional observations from a re-analysis of the deposited data

How the results depend on the processing

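Of the 10 changed members, 7 (Sptlc2, Cers2, Cers4, Cers6, Ugt8a, Fa2h and Gal3st1) kept their call and direction in all 19 alternatives. Degs1, Sgms2 and Acer3 lost theirs in some, and 0 of the 10 turned direction. The count of members that fell was 6 to 7 with each sample left out in turn, and 11 with the adipocyte score as a covariate, where Kdsr, Degs2, Cerk and Galc were added. The count of rises was 1 to 3 with each sample left out, and 6 with array weights. The further genes past the test were 3 to 6 with each sample left out, and 12 with array weights. With the pairing by replicate number as a block, 8 members fell and 3 rose, and 5 further genes passed; the calls of Cerk and Fads3 changed and no other call of a member or named further gene did. All genes past the test were 392 lower and 504 higher without mutant 1, 408 and 502 without mutant 3, and 1244 and 2411 with array weights, while 742 were higher without control 2 and 453 lower without the 2 muscle-rich samples.

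The sign turned for 8 members that did not pass, whose differences were at most 0.0901 in size. With array weights the values were 0.039 for Sptlc1, 0.089 for Ugcg, 0.011 for Sgpp1 and 0.049 for Psap. With median centring they were −0.030 for Cers5 and −0.0075 for Smpd3, and with repeated quantile normalization −0.0197 for Smpd3. Ugcg was 0.042 with sex as a covariate, and Cers5 −0.0231 with the adipocyte score. Without the 2 muscle-rich samples Sptlc1 was 0.0029, Smpd1 0.0055 and Ugcg 0.13. With each sample left out in turn, the ranges were −0.0893 to 0.00973 for Sptlc1, −0.0483 to 0.15 for Cers5, −0.10 to 0.15 for Smpd3, −0.0833 to 0.13 for Ugcg, −0.0497 to 0.24 for Acer2, −0.15 to 0.0104 for Sgpp1 and −0.0446 to 0.0163 for Psap. The cause was not tested. Arrays have no read depth, so a low value may be background, which compresses the difference of genes that are low in a group.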

Other observations

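In the difference between the log2 values of a pair of probe sets on the same array, a scale factor common to that array cancels. Background does not cancel, and how it was treated is not given. The change of such a difference between groups is described without a test, since the pairs were chosen after the values were seen. Cers6 minus Cers2 read −4.04, −4.23 and −4.38 in the control nerves 1 to 3 and −2.19, −2.24 and −1.91 in the mutant nerves 1 to 3, a change of 2.11 or 4.30-fold toward Cers6. Cers6 minus Cers4 read −2.02, −2.44 and −2.65 in the control nerves and 0.42, 0.32 and 0.78 in the mutant nerves, a change of 2.88 or 7.35-fold. Within the 3 nerves of each group these values varied less (SD 0.17 to 0.32) than between the groups.

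For the enzymes that compete for ceramide, Ugt8a minus Ugcg read 4.15, 4.07 and 4.57 in the control nerves and −0.74, −0.79 and −0.75 in the mutant nerves, a change of −5.03. Synthesis against breakdown of galactosylceramide, Ugt8a minus Galc, went from 4.44 ± 0.14 in the controls to 0.011 ± 0.089 in the mutants (SD, n = 3 each), a change of −4.43. Sgms2 minus Sgms1 was −1.31 ± 0.11 in the mutants and −2.19 ± 0.27 in the controls, a change of 0.88 toward Sgms2. Such values show unequal change of 2 genes, and their level depends on the probes.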
